A study of Mus musculus with 15 samples.

Results

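H3K27ac peaks of secretory progenitors (Sec-Pro) were set against those of enterocyte progenitors (Ent-Pro) of the mouse intestinal crypt, with 1 library each. All peaks of both deposited lists entered, with no filter on low scores: 74483 for Sec-Pro plus 68764 for Ent-Pro, which makes 143247 of the 778471 peaks in the 12 lists of the series. Sec-Pro were enriched in crypts of C57BL/6 mice with the Notch inhibitor dibenzazepine (DBZ) or by deletion of Rbpj, and the labels do not say which preparation gave the H3K27ac library. Ent-Pro were taken from crypts of C57BL/6 mice without Atoh1 (Atoh1-/-), in which no secretory cells form. No sort is stated for either progenitor, other crypt cells may be present in both, and the labels give neither the driver nor the time of the deletions. Genotype and treatment differ together with lineage, and their effects cannot be told apart. The labelled cell types could not be checked against marker genes, because no gene annotation of the files' build (mm9) was used here. Another 10 lists served as readouts that had no part in choosing the peaks. They were H3K4me2 of Rbpj-deleted Sec-Pro, of DBZ-treated Sec-Pro, of 2 Ent-Pro libraries, of stem cells sorted by green fluorescent protein from Lgr5-eGFP-Cre mice (ISC), of goblet cells from villi without Rbpj (GOB) and of enterocytes from villi without Atoh1 (ENT), DNase I hypersensitive sites (DHS) of Sec-Pro and of Ent-Pro, and ATOH1 binding in Sec-Pro.

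H3K27ac, acetylation of lysine 27 of histone H3, is placed by the acetyltransferases p300 and CBP and marks active promoters and enhancers. H3K4me2 marks promoters and enhancers whether or not they are active, and DHS mark DNA that is free of tightly bound nucleosomes. In the crypt, Notch signalling between neighbouring cells, read out on DNA by RBPJ, keeps ATOH1 off in future enterocytes, and ATOH1 drives the secretory fate where Notch is low. The comparison asks how far the active regions of cells on the way to these fates differ.

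The lists were close in length and peak width and differed in their upper scores. The Sec-Pro list covered 59.74 Mb at a median peak width of 489 bp, and the Ent-Pro list 63.97 Mb at 555 bp. The shortest peak measured 200 bp in both. The unnamed score that the authors gave each peak, used here only to rank peaks within a list, had a median of 10.4 in Sec-Pro and 13.5 in Ent-Pro, an upper quartile of 27.7 in Sec-Pro and 44.2 in Ent-Pro, a 90th percentile of 68.4 in Sec-Pro and 125.3 in Ent-Pro, and a highest value of 482.6 in Sec-Pro and 508.2 in Ent-Pro. The upper 25% of a list by score therefore began at a score of 27.7 in Sec-Pro and 44.2 in Ent-Pro. Read depth is unknown for both, and a region without a listed peak may still carry the mark below the level of calling. Each progenitor has 1 H3K27ac library, which allows no test between them. Brackets give 95% intervals, which cover counting error over peaks only, and peaks of 1 list are not replicates.

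A peak was called one-sided when no base of it was overlapped by the other H3K27ac list. By this rule 15009 Sec-Pro peaks (20.2%) and 15525 Ent-Pro peaks (22.6%) were one-sided. These peaks held little of the marked length: 4.56 of 59.74 Mb (7.63%) in Sec-Pro and 5.20 of 63.97 Mb (8.13%) in Ent-Pro. They lay low in their lists. The median one-sided peak stood at percentile 19.6 of the Sec-Pro list and 21.6 of the Ent-Pro list, against 59.8 and 60.7 for the shared peaks of Sec-Pro and Ent-Pro. The near balance of both sides depended on how the lists were made equal. With both lists kept to the 68764 peaks of highest score, 11908 Sec-Pro and 17232 Ent-Pro peaks were one-sided. With both kept to equal covered length, which left 74483 Sec-Pro and 54506 Ent-Pro peaks, 20283 Sec-Pro and 8023 Ent-Pro peaks were, so which side had more depended on the choice.

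Strong peaks, the upper 25% of a list by score, were nearly all shared. Only 5 of 18648 in Sec-Pro (0.0268%) and 9 of 17194 in Ent-Pro (0.0523%) were one-sided. Of the 500 and of the 1000 peaks with the highest scores in either list, every one overlapped the other list. Among the weak peaks, the lower 25% of a list, 8944 of 18518 in Sec-Pro (48.3%) and 8905 of 17334 in Ent-Pro (51.4%) were one-sided. In the class above the weak peaks, from percentile 25 to 50 (lower middle), the counts were 5263 of 18660 in Sec-Pro (28.2%) and 5363 of 17089 in Ent-Pro (31.4%). From percentile 50 to 75 (upper middle) they were 797 of 18657 in Sec-Pro (4.27%) and 1248 of 17147 in Ent-Pro (7.28%). With each list split into 10 equal steps of score, the one-sided share was lower at each higher step up to step 9. From step 2 to step 8 it was higher in Ent-Pro than in Sec-Pro, with intervals that did not overlap. This order holds for the lists as deposited: at equal covered length 15 Sec-Pro and 2 Ent-Pro strong peaks were one-sided, the opposite order. In the lowest step 53.3% [52.2 to 54.5] of Sec-Pro and 55.4% [54.2 to 56.6] of Ent-Pro peaks were one-sided.

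**Figure D1:**
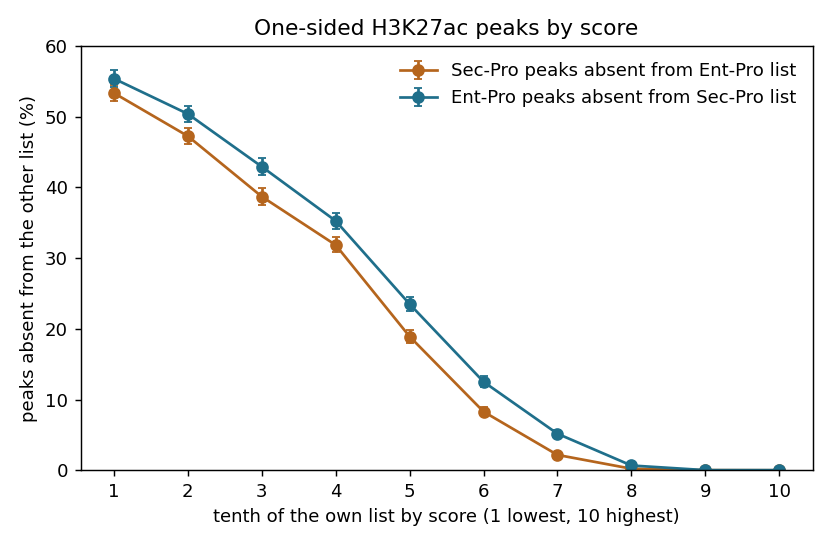
Share of H3K27ac peaks absent from the other list (vertical axis, %) over 10 equal steps of score in the own list (horizontal axis, lowest to highest), for Sec-Pro and Ent-Pro, 1 library each; bars are 95% Wilson intervals. In the highest step 0 of 7426 Sec-Pro and 1 of 6874 Ent-Pro peaks were one-sided, against 53.3% and 55.4% in the lowest step.

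The counts of strong one-sided peaks depended on what counts as shared. When at least 50% of a peak had to be covered by the other list, 67 Sec-Pro and 251 Ent-Pro strong peaks were one-sided. When peaks within 1 kb were merged first, 0 Sec-Pro and 1 Ent-Pro strong peak were. Agreement in rank was looser than agreement in presence. Of the 500 highest Sec-Pro peaks, 317 (63.4%) met 1 of the 500 highest Ent-Pro peaks, and of the 500 highest Ent-Pro peaks, 315 (63.0%) met 1 of the 500 highest Sec-Pro peaks. For the upper 10000 the numbers were 8682 (86.8%) of Sec-Pro and 8299 (83.0%) of Ent-Pro.

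All 5 strong one-sided Sec-Pro peaks lay between percentiles 76.9 and 81.0 of their list, close above the threshold. The one with the highest score lay on chromosome 18 at 84897306 to 84897664 (mm9, as all positions here), was 359 bp wide, and lay 192 bp from the nearest Ent-Pro peak, with H3K4me2 in 6 of 7 lists, all except ISC. A peak of 885 bp on chromosome 17 at 67652753 to 67653637 was the widest and the farthest from an Ent-Pro peak, at 546193 bp. It carried H3K4me2 in 6 of 7 lists, all except Ent-Pro replicate 1, and DHS of both progenitors. A peak on chromosome 17 at 74305458 to 74305909 and one on chromosome 2 at 128532699 to 128533492 carried H3K4me2 in the same 3 lists, Rbpj-deleted Sec-Pro, GOB and ENT. The fifth, on chromosome X at 12949336 to 12950013, carried none of the 10 other marks. The next Sec-Pro-only peak below the threshold, at percentile 74.5 on chromosome 18 at 36078903 to 36079428, carried all 10.

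The 9 strong one-sided Ent-Pro peaks reached higher. One on chromosome 4 at 116871679 to 116872972, 1294 bp wide, stood at percentile 93.7, and its nearest Sec-Pro peak lay 1813 bp away. Of the 10 other lists, Ent-Pro H3K4me2 replicate 2 alone had a peak in it. The others stood between percentiles 75.8 and 81.7. The widest, of 1751 bp, lay on chromosome 7 at 28116124 to 28117874, and the next, of 1707 bp, on chromosome 14 at 87232866 to 87234572. The peak on chromosome 7, one on chromosome 12 at 30622814 to 30624049 and one on chromosome 4 at 151512376 to 151513411 carried H3K4me2 in all 7 lists, DHS of both progenitors and ATOH1. Those on chromosome 14 and on chromosome 4 at 43351992 to 43353140 carried H3K4me2 in every list but GOB. On chromosome 11, the peak at 19323840 to 19324594 had H3K4me2 in every list but ISC. On chromosome 6, the one at 136862112 to 136862747 had H3K4me2 in all 7 lists and DHS of both progenitors. The last, at 154179357 to 154180073 of chromosome 2, had Ent-Pro DHS and H3K4me2 in 4 lists, those of DBZ-treated Sec-Pro, both Ent-Pro libraries and GOB. All 9 lay over 1 kb from the nearest Sec-Pro peak, as did 3 of the 5 Sec-Pro peaks. The next Ent-Pro-only peaks below the threshold, at percentiles 74.9 and 74.8, lay on chromosome 5 and carried H3K4me2 in all 7 lists. None of the 14 strong one-sided peaks had H3K4me2 in the 2 libraries of 1 progenitor with none in the other progenitor. Shared strong peaks rarely did either, with Sec-Pro alone at 0.032% in the Sec-Pro and 0.017% in the Ent-Pro list. Ent-Pro alone lay at 0.23% and 0.093%. Between Rbpj-deleted Sec-Pro and Ent-Pro replicate 2, 2 Sec-Pro peaks had Sec-Pro alone and 2 Ent-Pro peaks Ent-Pro alone, with 0 the other way. Between DBZ-treated Sec-Pro and Ent-Pro replicate 1, 1 Sec-Pro peak had Sec-Pro alone. H3K4me2 of GOB without ENT lay in 0 of the 5 Sec-Pro and 1 of the 9 Ent-Pro peaks. H3K4me2 of ENT without GOB lay in 0 of the 5 Sec-Pro and 2 of the 9 Ent-Pro peaks. Shared strong peaks had GOB without ENT at 0.43% in the Sec-Pro list and 0.51% in the Ent-Pro list. They had ENT without GOB at 3.14% in the Sec-Pro list and 2.09% in the Ent-Pro list.

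One-sided peaks were narrower than shared peaks of the same step of score. In step 8 the medians were 631 against 925 bp in Sec-Pro and 763 against 1154 bp in Ent-Pro. The medians by class that follow do not hold score equal, since strong Sec-Pro-only peaks ended at percentile 81.0 and shared ones ran to 100. The median width of strong Sec-Pro-only peaks was 678 bp and that of strong Ent-Pro-only peaks 1149 bp, against 1431 bp for shared strong Sec-Pro peaks and 1723 bp for shared strong Ent-Pro peaks. In the upper middle class the medians were 392 bp for Sec-Pro-only and 465 bp for Ent-Pro-only peaks, against 658 bp for shared Sec-Pro and 783 bp for shared Ent-Pro peaks. Among weak peaks the gap was small, with 242 bp for Sec-Pro-only and 248 bp for Ent-Pro-only peaks against 272 bp for shared Sec-Pro and 280 bp for shared Ent-Pro peaks. A wide peak has more bases that the other list can meet, so width and sharing are tied by the rule itself.

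**Figure D2:**
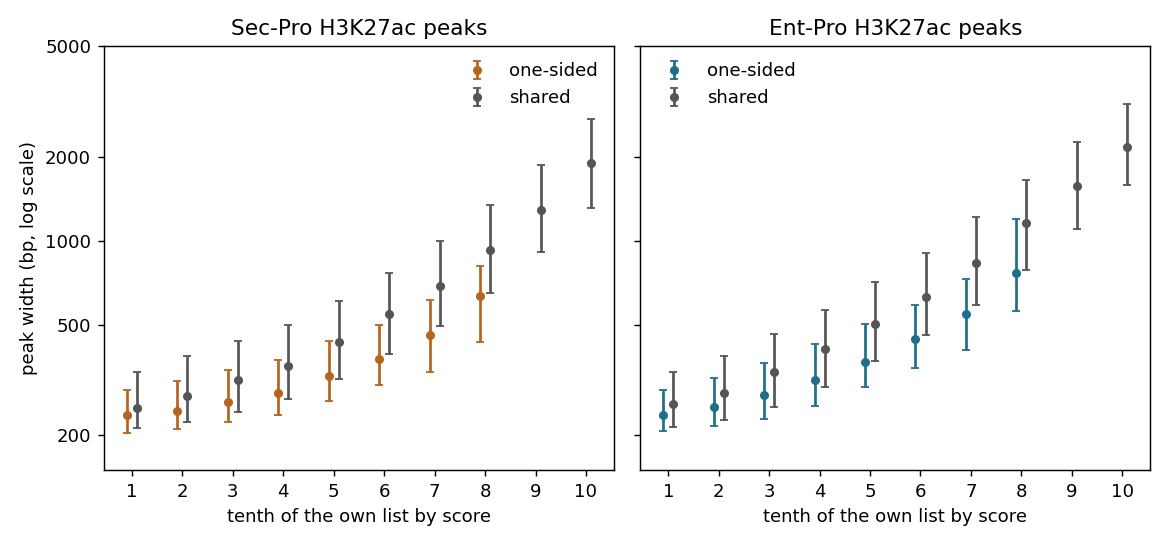
Peak width (vertical axis, bp, log scale) over 10 equal steps of score in the own list (horizontal axis), for one-sided and shared H3K27ac peaks of Sec-Pro (left) and Ent-Pro (right); points are medians, bars run between the quartiles, and steps with fewer than 10 one-sided peaks show shared peaks alone. In step 8 the medians were 631 bp one-sided and 925 bp shared in Sec-Pro, and 763 bp one-sided and 1154 bp shared in Ent-Pro.

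Strong Ent-Pro peaks were often met by several Sec-Pro peaks. Of strong Sec-Pro peaks 9.33% [8.92 to 9.76] overlapped more than 1 Ent-Pro peak, and of strong Ent-Pro peaks 28.9% [28.2 to 29.6] overlapped more than 1 Sec-Pro peak. A Sec-Pro peak met at most 5 Ent-Pro peaks, and an Ent-Pro peak at most 7 Sec-Pro peaks. The median shared strong peak had 99.8% of its length covered by the other list in Sec-Pro and 91.9% in Ent-Pro. Strong Ent-Pro peaks thus spanned several peaks of the other list more often than strong Sec-Pro peaks did.

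One-sided peaks also differed in where they lay. Of Sec-Pro-only peaks 8340 (55.6% [54.8 to 56.4]) and of Ent-Pro-only peaks 7213 (46.5% [45.7 to 47.2]) had a peak of the other list within 1 kb. Over 10 kb from any peak of the other list lay 1724 Sec-Pro-only peaks (11.5%) and 3942 Ent-Pro-only peaks (25.4%). In the upper middle class the median distance was 567 bp for Sec-Pro-only and 3490 bp for Ent-Pro-only peaks. Sec-Pro-only peaks thus lay closer to regions that the other progenitor marked than Ent-Pro-only peaks did.

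Windows of 50 kb with the greatest length of one-sided peaks showed where such peaks gathered. The first for Sec-Pro, on chromosome 9 from 48500001 to 48550000, held 18 Sec-Pro-only peaks with 8494 bp in all, and had 29 Sec-Pro peaks (22434 bp) and 14 Ent-Pro peaks (9445 bp). The second, on chromosome 6 from 50300001 to 50350000, held 14 Sec-Pro-only peaks with 5442 bp, and had 24462 bp of Sec-Pro and 16844 bp of Ent-Pro H3K27ac. H3K4me2 there covered 14517 bp in GOB and 17493 bp in ENT, against 4340 bp in ISC. The third, on chromosome 9 from 46000001 to 46050000, held 11 Sec-Pro-only peaks, and the fourth, on chromosome 2 from 62200001 to 62250000, held 10. The first for Ent-Pro, on chromosome 6 from 64700001 to 64750000, held 14 Ent-Pro-only peaks with 6222 bp, and had 3 Sec-Pro peaks (1592 bp) and 15 Ent-Pro peaks (9436 bp). On chromosome 15 from 94450001 to 94500000 there were 4 Sec-Pro peaks (1560 bp) and 9 Ent-Pro peaks (12217 bp), and on chromosome 7 from 25500001 to 25550000 there were 1 Sec-Pro peak (342 bp) and 6 Ent-Pro peaks (5601 bp). The fourth, on chromosome 15 from 85850001 to 85900000, had 6971 bp of Sec-Pro and 9623 bp of Ent-Pro H3K27ac. In the 4 Sec-Pro windows Ent-Pro H3K27ac still covered 9445 to 22154 bp, whereas Sec-Pro H3K27ac covered 342 to 1592 bp in 3 of the 4 Ent-Pro windows.

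Since strong one-sided peaks were so few, the other marks were compared at one-sided peaks of the upper middle class, a choice made after the counts were seen. Here the 797 Sec-Pro-only peaks carried less of every other mark than the 1248 Ent-Pro-only peaks. H3K4me2 of DBZ-treated Sec-Pro lay at 36.4% of Sec-Pro-only and 80.3% of Ent-Pro-only peaks, a difference of -43.9 points [-47.8 to -39.8]. H3K4me2 of Rbpj-deleted Sec-Pro lay at 29.9% of Sec-Pro-only and 54.2% of Ent-Pro-only peaks. Even the H3K4me2 of Sec-Pro was thus found less often at Sec-Pro-only than at Ent-Pro-only H3K27ac. The Ent-Pro libraries showed the same order, with 36.5% of Sec-Pro-only and 82.0% of Ent-Pro-only peaks in replicate 1, and 24.0% of Sec-Pro-only and 68.5% of Ent-Pro-only peaks in replicate 2. Shared peaks of this class had H3K4me2 of DBZ-treated Sec-Pro at 82.3% in the Sec-Pro and 87.0% in the Ent-Pro list. For ISC the shares were 52.7% and 55.5%. In each H3K4me2 list Ent-Pro-only peaks lay below shared peaks, and Sec-Pro-only peaks lay further below.

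Stem cells and mature cells followed. ISC H3K4me2 lay at 14.1% of Sec-Pro-only and 45.8% of Ent-Pro-only peaks, a difference of -31.7 points [-35.3 to -27.9]. GOB H3K4me2 lay at 42.4% of Sec-Pro-only and 62.6% of Ent-Pro-only peaks, and ENT H3K4me2 at 53.2% of Sec-Pro-only and 67.6% of Ent-Pro-only peaks. H3K4me2 was in none of the 7 lists at 29.1% of Sec-Pro-only and 8.01% of Ent-Pro-only peaks, and in all 7 at 7.15% of Sec-Pro-only and 33.3% of Ent-Pro-only peaks. Shared peaks of this class had it in all 7 at 41.7% in the Sec-Pro list and 43.6% in the Ent-Pro list. Most peaks of each set thus lay outside the regions marked in every cell type, and Sec-Pro-only peaks most often. Sec-Pro-only peaks also lay more often than Ent-Pro-only peaks where no H3K4me2 was listed.

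Open chromatin and ATOH1 showed the same contrast. Sec-Pro DHS lay at 3.76% of Sec-Pro-only and 21.7% of Ent-Pro-only peaks, a difference of -17.9 points [-20.6 to -15.3]. Ent-Pro DHS lay at 4.77% of Sec-Pro-only and 27.7% of Ent-Pro-only peaks. ATOH1, mapped in Sec-Pro, bound 2.76% of Sec-Pro-only and 9.21% of Ent-Pro-only peaks. Shared peaks of the same class carried Sec-Pro DHS at 17.0% in the Sec-Pro list and 15.4% in the Ent-Pro list, and ATOH1 at 7.59% in the Sec-Pro list and 8.72% in the Ent-Pro list. Sec-Pro-only peaks were thus below shared peaks in open chromatin and ATOH1 binding, while Ent-Pro-only peaks were above them in DHS of either progenitor.

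**Figure D3:**
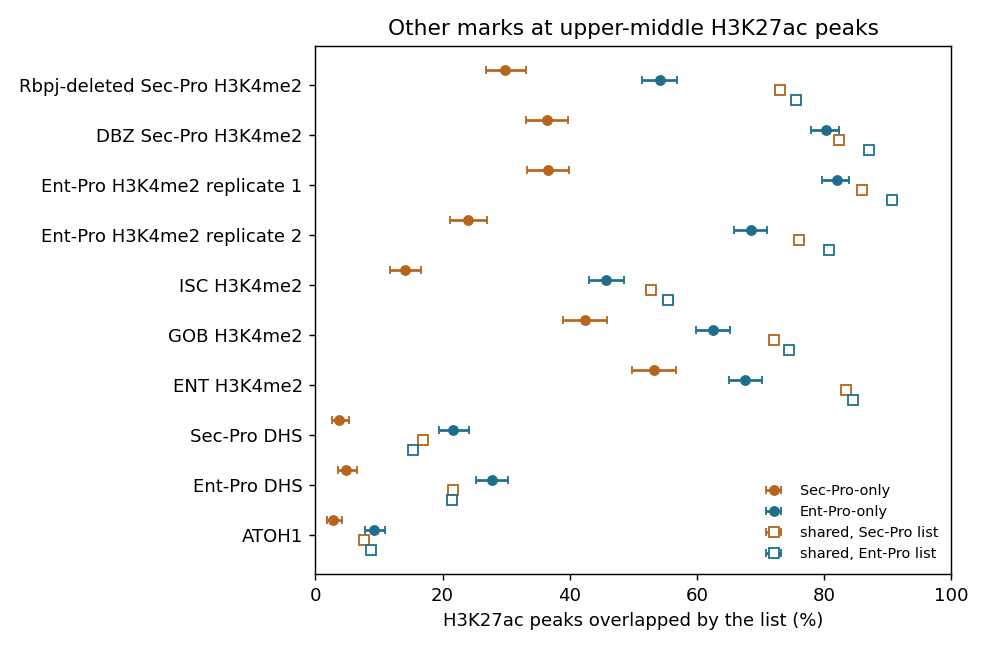
Share of upper-middle H3K27ac peaks (horizontal axis, %) overlapped by each of the 10 other lists (rows), for Sec-Pro-only (797 peaks), Ent-Pro-only (1248) and the shared peaks of the Sec-Pro (17860) and Ent-Pro (15899) lists; bars are 95% Wilson intervals. In all 10 rows Sec-Pro-only peaks lie below Ent-Pro-only peaks, and in the DHS rows Ent-Pro-only peaks lie above shared peaks.

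The contrast was also seen away from the other list and among peaks of like width. Score was not held equal within the class. Its lowest step of score, step 6, held 624 of 797 Sec-Pro-only and 852 of 1248 Ent-Pro-only peaks, and the share this has in the contrast was not tested. Over 1 kb from the other list, ISC H3K4me2 lay at 13.6% of Sec-Pro-only and 45.9% of Ent-Pro-only peaks, and Sec-Pro DHS at 4.94% of Sec-Pro-only and 19.8% of Ent-Pro-only peaks. Among peaks of 300 to under 500 bp, ISC H3K4me2 lay at 14.1% of 398 Sec-Pro-only and 45.5% of 594 Ent-Pro-only peaks. Among peaks of at least 500 bp it lay at 16.2% of 229 Sec-Pro-only and 48.1% of 539 Ent-Pro-only peaks. The difference shrank towards weak peaks, where ISC H3K4me2 lay at 9.0% of Sec-Pro-only and 20.1% of Ent-Pro-only peaks, and Sec-Pro DHS at 2.20% of Sec-Pro-only and 5.10% of Ent-Pro-only peaks. In the lower middle class ISC H3K4me2 lay at 10.4% of Sec-Pro-only and 29.9% of Ent-Pro-only peaks. Among strong peaks it lay at 1 of 5 Sec-Pro-only and 6 of 9 Ent-Pro-only peaks. When peaks within 1 kb were merged first, the difference in Sec-Pro DHS shrank to -4.04 points.

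Whether one-sided H3K27ac went with one-sided H3K4me2 was asked next, with H3K4me2 lists made alike. The shortest peak was 200 bp in the lists of Rbpj-deleted Sec-Pro and Ent-Pro replicate 2, and 146 bp in those of DBZ-treated Sec-Pro and Ent-Pro replicate 1, so each kind gives its own comparison. Between the 200-bp lists, 86 Sec-Pro-only peaks of the upper middle class (10.8%) had H3K4me2 in Sec-Pro alone and 39 (4.89%) in Ent-Pro alone. Of the Ent-Pro-only peaks, 29 (2.32%) and 208 (16.7%) did. The odds ratio was 15.8 [9.20 to 27.2]. Shared peaks of this class had Sec-Pro alone at 5.1% in the Sec-Pro and 4.0% in the Ent-Pro list. They had Ent-Pro alone at 8.2% and 9.2%. Between the 146-bp lists the numbers were 59 (7.40%) in Sec-Pro alone and 60 (7.53%) in Ent-Pro alone for Sec-Pro-only peaks. For Ent-Pro-only peaks they were 61 (4.89%) and 82 (6.57%), with an odds ratio of 1.32 [0.811 to 2.15]. Shared peaks had Sec-Pro alone at 2.63% in the Sec-Pro and 2.33% in the Ent-Pro list. They had Ent-Pro alone at 6.29% and 5.99%. H3K4me2 of 1 lineage thus went with H3K27ac of the same lineage between the 200-bp lists, whose shortest peak both H3K27ac lists share, and between the 146-bp lists the interval includes 1. Over one-sided peaks of every score the odds ratio was 4.29 [3.71 to 4.95] between the 200-bp lists and 1.35 [1.19 to 1.53] between the 146-bp lists. Which kind of list, or which of the Sec-Pro preparations, stands closer to the H3K27ac libraries cannot be told apart.

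Few peaks, one-sided or shared, met the rule over all 4 libraries. In the upper middle class 9 Sec-Pro-only peaks had H3K4me2 in the 2 Sec-Pro libraries with none in Ent-Pro, and 5 had the opposite, against 2 and 20 of the Ent-Pro-only peaks. Over all scores the numbers were 112 (0.746%) and 68 (0.453%) for Sec-Pro-only peaks, against 44 (0.283%) and 199 (1.28%) for Ent-Pro-only peaks. The odds ratio was 7.45 [4.78 to 11.6]. DHS listed in 1 progenitor alone was counted in the same way over all scores. At Sec-Pro-only peaks 49 (0.33%) lay in Sec-Pro alone and 128 (0.85%) in Ent-Pro alone. At Ent-Pro-only peaks the numbers were 45 (0.29%) and 479 (3.1%), with an odds ratio of 4.07 [2.60 to 6.39]. In the upper middle class these DHS were few, with 2 in Sec-Pro alone and 10 in Ent-Pro alone at Sec-Pro-only peaks, against 9 and 84 at Ent-Pro-only peaks, and the interval of the odds ratio (1.87 [0.353 to 9.88]) includes 1. Most one-sided H3K27ac thus had no matching one-sided H3K4me2 or DHS, and such marks were rare at shared peaks too. Over all scores, H3K4me2 of Sec-Pro alone lay at 0.279% of shared Sec-Pro and 0.314% of shared Ent-Pro peaks. H3K4me2 of Ent-Pro alone lay at 0.997% and 0.947%. DHS of Sec-Pro alone lay at 0.409% of shared Sec-Pro and 0.421% of shared Ent-Pro peaks, and DHS of Ent-Pro alone at 4.88% and 5.31%. Neither one-sided set thus exceeded shared peaks in DHS of its own progenitor alone. DHS of Sec-Pro alone differed little between the one-sided sets, and the odds ratio lay mostly in DHS of Ent-Pro alone.

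H3K4me2 of mature cells was compared in the same way. H3K4me2 of GOB without ENT lay at 7.65% of Sec-Pro-only and 6.33% of Ent-Pro-only peaks of the upper middle class, a difference of 1.32 points [-0.899 to 3.71]. H3K4me2 of ENT without GOB lay at 18.4% of Sec-Pro-only and 11.4% of Ent-Pro-only peaks, a difference of 7.07 points [3.91 to 10.3]. Shared peaks of this class had GOB without ENT at 3.19% in the Sec-Pro list and 3.48% in the Ent-Pro list, and ENT without GOB at 14.6% in the Sec-Pro list and 13.6% in the Ent-Pro list. ENT without GOB was thus the more frequent of both in each of these sets. For GOB without ENT both one-sided sets lay above shared peaks, and for ENT without GOB Sec-Pro-only peaks alone did. Over all scores, the odds ratio of GOB against ENT, taken for Sec-Pro-only over Ent-Pro-only peaks, was 0.897 [0.808 to 0.997], just below 1.

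Shared peaks were compared through one-to-one pairs, in which 1 Sec-Pro peak overlapped 1 Ent-Pro peak and neither overlapped another. There were 36687 pairs, 49.3% of the Sec-Pro and 53.4% of the Ent-Pro list. Each peak was ranked by score among the pairs of its own list, so that list length does not enter. Ranks in both lists had a Spearman correlation of 0.825 over the pairs, and widths one of 0.811, both across regions that share 2 libraries. The median pair differed by 8.80 percentile points in either direction. The Sec-Pro peak was the narrower one in 22302 pairs (60.8%), and the median ratio of Sec-Pro to Ent-Pro width was 0.944.

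**Figure D4:**
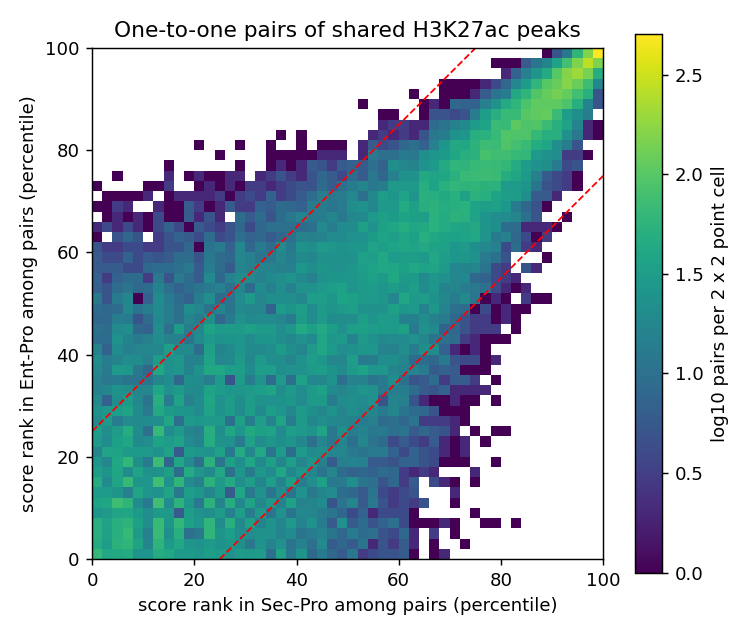
Score rank of 36687 one-to-one pairs among the pairs of their own list (percentile), in Sec-Pro (horizontal axis) and in Ent-Pro (vertical axis); the colour gives log10 of the number of pairs per cell, and dashed lines mark a difference of 25 points. Pairs gather on the diagonal at high ranks and spread widely at low ranks; 2625 lie 25 points or more higher in Sec-Pro and 2717 in Ent-Pro.

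Pairs 25 points or more apart were about as many on each side, which ranking within the same pairs largely sets in advance. There were 2625 (7.16%) higher in Sec-Pro and 2717 (7.41%) higher in Ent-Pro, of which 153 and 194 were 50 points or more apart. The pair with the greatest difference in favour of Sec-Pro, on chromosome 17 at 36304891 to 36305500, stood at percentile 82.8 in Sec-Pro and 7.79 in Ent-Pro, and was 610 bp wide in Sec-Pro but 214 bp in Ent-Pro. A pair on chromosome 13 at 109082662 to 109083948 stood at 79.6 in Sec-Pro and 6.61 in Ent-Pro, with widths of 1287 bp in Sec-Pro against 402 bp in Ent-Pro. A pair on chromosome 5 at 68318948 to 68319685 stood at 72.7 in Sec-Pro and 3.05 in Ent-Pro, and of the 10 other lists Ent-Pro H3K4me2 replicate 1 alone marked it. The fourth, on chromosome 5 at 146690574 to 146691527, stood at 76.8 in Sec-Pro and 7.79 in Ent-Pro and had H3K4me2 in Rbpj-deleted and DBZ-treated Sec-Pro, Ent-Pro replicate 1, GOB and ENT. None of these 4 had ATOH1, and DHS lay in the first alone.

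In favour of Ent-Pro, the greatest difference was found on chromosome 4 at 106135773 to 106137367, which stood at percentile 1.62 in Sec-Pro and 72.3 in Ent-Pro, and was 210 bp wide in Sec-Pro but 1595 bp in Ent-Pro. It had H3K4me2 in all 7 lists and DHS of both progenitors. A pair on chromosome 12 at 80155793 to 80157429 stood at 5.35 in Sec-Pro and 74.9 in Ent-Pro and had none of the 10 other marks. A pair on chromosome 4 at 140159926 to 140160585 stood at 3.28 in Sec-Pro and 71.6 in Ent-Pro and had H3K4me2 in all 7 lists. The fourth, on chromosome 5 at 36696049 to 36697029, stood at 0.315 in Sec-Pro and 68.2 in Ent-Pro and had H3K4me2 in every list but ENT, with DHS of Ent-Pro. In all 8 pairs the peak that ranked higher was also the wider one.

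The other marks at pairs ranked apart showed the contrast of the one-sided peaks. ISC H3K4me2 lay at 23.2% of pairs higher in Sec-Pro and 53.7% of pairs higher in Ent-Pro, a difference of -30.5 points [-32.9 to -28.0], and at 54.7% of all pairs. Sec-Pro DHS lay at 4.84% of pairs higher in Sec-Pro and 21.7% of pairs higher in Ent-Pro, against 27.4% of all pairs, and Ent-Pro DHS at 6.48% of pairs higher in Sec-Pro and 27.8% of pairs higher in Ent-Pro. ATOH1 bound 3.43% of pairs higher in Sec-Pro and 10.2% of pairs higher in Ent-Pro, against 10.5% of all pairs. Pairs within 5 points of each other had these marks most often, with Sec-Pro DHS at 45.2% and ATOH1 at 15.5%, and were the strongest, with a median rank of 74.9 in Sec-Pro and 74.8 in Ent-Pro. The differences were of like size among pairs of like strength. Where the mean of the Sec-Pro and Ent-Pro ranks was 25 to 50, ISC H3K4me2 lay at 22.5% of pairs higher in Sec-Pro and 53.7% of pairs higher in Ent-Pro. With a joint width of 400 to under 800 bp it lay at 21.9% of pairs higher in Sec-Pro and 51.9% of pairs higher in Ent-Pro.

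Between the 200-bp H3K4me2 lists, 242 pairs higher in Sec-Pro (9.22%) had H3K4me2 in Sec-Pro alone and 217 (8.27%) in Ent-Pro alone. Of the pairs higher in Ent-Pro, 96 (3.53%) and 360 (13.25%) did (odds ratio 4.18 [3.13 to 5.59]). All pairs had Sec-Pro alone at 4.27% and Ent-Pro alone at 7.10%, so Ent-Pro alone was above that share on each side. Between the 146-bp lists, 154 pairs higher in Sec-Pro (5.87%) had Sec-Pro alone and 253 (9.64%) Ent-Pro alone. Of the pairs higher in Ent-Pro, 87 (3.20%) and 180 (6.6%) did, against 3.27% and 5.62% of all pairs. Ent-Pro alone was thus more frequent at pairs higher in Sec-Pro, by 3.01 points [1.55 to 4.49], the opposite order to the 200-bp lists. The odds ratio was 1.26 [0.910 to 1.74], and its interval again includes 1.

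H3K4me2 listed in 1 mature cell type alone differed between the sides. H3K4me2 of ENT without GOB lay at 590 of 2625 pairs higher in Sec-Pro (22.5%) and 317 of 2717 pairs higher in Ent-Pro (11.7%), a difference of 10.8 points [8.81 to 12.8], and at 12.0% of all pairs. H3K4me2 of GOB without ENT lay at 104 pairs higher in Sec-Pro (3.96%) and 169 pairs higher in Ent-Pro (6.22%), a difference of -2.26 points [-3.45 to -1.08], and at 3.70% of all pairs. The odds ratio of GOB against ENT was 0.331 [0.250 to 0.437]. ENT H3K4me2 of any kind, with or without GOB, lay at 69.4% of pairs higher in Sec-Pro and 74.0% of pairs higher in Ent-Pro, a difference of -4.64 points [-7.06 to -2.23], and GOB H3K4me2 of any kind at 50.9% of pairs higher in Sec-Pro and 68.6% of pairs higher in Ent-Pro. The excess at pairs higher in Sec-Pro was thus in H3K4me2 of ENT without GOB, and both mature marks as a whole were less frequent there. From pairs 50 points or more higher in Sec-Pro to those 50 points or more higher in Ent-Pro, ENT without GOB lay at 24.8%, 22.3%, 15.8%, 7.50%, 11.1%, 11.8% and 10.3%, the fourth value being that of pairs within 5 points. Among pairs with a mean rank of 25 to 50, ENT without GOB lay at 23.5% of pairs higher in Sec-Pro and 12.4% of pairs higher in Ent-Pro. GOB and ENT were mapped in 1 library each, from Rbpj-/- and Atoh1-/- villi, so this contrast too cannot be told apart from genotype.

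**Figure D5:**
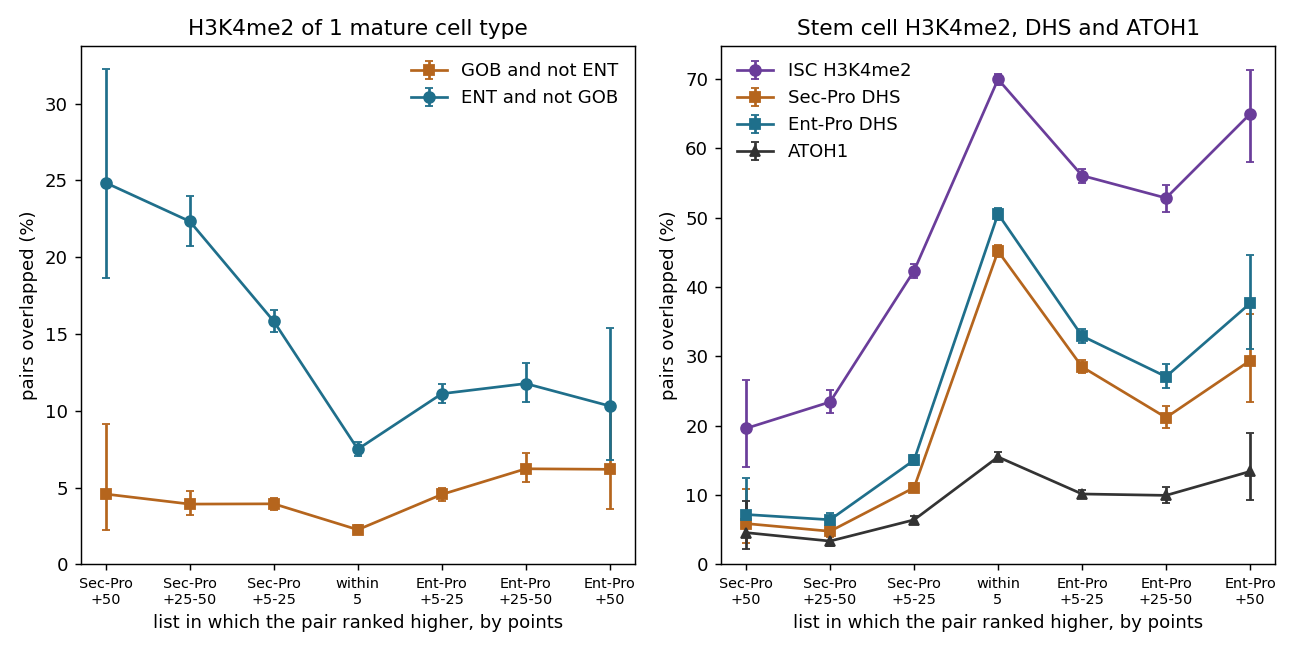
Share of one-to-one pairs (vertical axes, %) with H3K4me2 of GOB and not ENT or of ENT and not GOB (left), and with ISC H3K4me2, DHS or ATOH1 (right), by the list in which the pair ranked higher and by how many percentile points (horizontal axes, Sec-Pro at the left, Ent-Pro at the right); bars are 95% Wilson intervals. ENT without GOB is 24.8% at the Sec-Pro end, lowest at 7.50% within 5 points and 10.3% at the Ent-Pro end; ISC H3K4me2 is 19.6% at the Sec-Pro end, highest at 70.0% within 5 points and 65.0% at the Ent-Pro end.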

How the data were processed

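Per the labels' protocols, chromatin was fixed with formaldehyde and sonicated, H3K27ac was precipitated with Abcam ab4729, and DNA was amplified with the ThruPLEX-FD kit. The submitters' processing notes name Bowtie 0.12.7, CASAVA 1.7, MACS2 and build mm9, and no parameter, depth or use of input is given in the sources used here. The authors deposited 1 peak list per library (12 of 15 samples; 3 input samples were not analysed here) with position and name. The authors also deposited a score for each peak; its kind and how it was made are not stated, and it served only for ranks within a list. Tied scores shared their mean rank. Overlaps (at least 1 bp), Wilson intervals for shares, Newcombe intervals for differences and Wald intervals for odds ratios were computed with SciPy 1.17.1 and NumPy 2.4.6 under Python 3.11.15; matplotlib 3.10.9 drew the figures. Counting was tested on simulated lists, in which 300 and 700 one-sided peaks were made and found. No test was run, since each side has 1 library and no replicates. Positions are 1-based. No mm9 genome or annotation was used, so no gene or sequence is named.

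The members and lists were chosen with earlier results of these data known. Named regions are the 8 highest-scoring and 4 widest strong one-sided peaks (in the text, all 14 strong ones), 4 windows and 4 pairs per side. The middle classes, the grouping by shortest peak, the odds ratios and the strata of width, distance and mean rank were chosen after the data were examined. Alternatives were overlap of at least 50%, a distance over 1 kb, merging within 1 kb, equal list number or length, autosomes only, other limits for strong peaks, and leaving out each H3K4me2 library.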

Additional observations from a re-analysis of the deposited data

How the results depend on the processing

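With at least 50% of a peak covered, strong one-sided peaks numbered 67 in Sec-Pro (median width 1222 bp) and 251 in Ent-Pro, of which 3 in Sec-Pro and 14 in Ent-Pro had GOB without ENT and 10 in Sec-Pro and 13 in Ent-Pro had ENT without GOB. H3K4me2 of Sec-Pro alone lay at 1 of the Sec-Pro peaks, and that of Ent-Pro alone at 1 of either side. Over 1 kb from the other list, 6669 Sec-Pro and 8312 Ent-Pro peaks were one-sided, 3 of them strong in Sec-Pro, and the upper-middle difference in Sec-Pro DHS was -14.9 points. Merging within 1 kb left 6010 Sec-Pro and 7494 Ent-Pro one-sided peaks, 0 and 1 of them strong, with 0 of GOB or ENT alone in Ent-Pro; the ISC difference was -38.7 points, the Sec-Pro DHS difference -4.04, and pairs ranked apart numbered 1023 and 1167. Equal covered length left 8023 Ent-Pro one-sided peaks, 15 strong Sec-Pro and 2 strong Ent-Pro ones, of which ENT without GOB marked 1 on each side and GOB without ENT 0 in Ent-Pro; the Sec-Pro DHS difference was -21.3 points and the odds ratio of GOB against ENT at pairs 0.221. The odds ratio of the 200-bp lists was 29.7 at equal length and 8.16 with 50% of the peak covered, both above 1, and was not computed after merging, where 1 of its counts was 0. With strong as the upper 10%, 0 Sec-Pro and 1 Ent-Pro peak were one-sided, and 0 of GOB or ENT alone in Ent-Pro. With the upper 50%, they numbered 802 and 1257 (median width 468 bp in Ent-Pro), with GOB without ENT at 61 in Sec-Pro and 80 in Ent-Pro, ENT without GOB at 147 and 144, H3K4me2 of Sec-Pro alone at 9 and 2 and of Ent-Pro alone at 5 and 20. With 50% of the peak covered by the other mark, GOB without ENT lay at 1 strong Sec-Pro and 0 strong Ent-Pro one-sided peaks, ENT without GOB at 1 of each, and H3K4me2 of Sec-Pro alone at 1 of Sec-Pro; the ISC difference was -22.0 points and the Sec-Pro DHS difference -6.94. Leaving out 1 progenitor H3K4me2 library at a time gave 0 to 2 strong Sec-Pro-only peaks with H3K4me2 of Sec-Pro alone and 0 to 1 strong Ent-Pro-only peaks with that of Ent-Pro alone. The cause of these moves was not tested. Merging and the upper 10% left no strong Sec-Pro-only peak to measure. Of the recomputed values, 110 stayed within 1.5 times the reported count or within the reported interval or spread, 60 moved further, and none of the mark differences or odds ratios changed direction. Many of the 110 were counts of 0 among the few strong one-sided peaks that stayed 0, and these had little room to move. Which list had more one-sided peaks did change: Ent-Pro had more as reported and with lists of equal number (11908 in Sec-Pro and 17232 in Ent-Pro), and Sec-Pro had more at equal covered length (20283 in Sec-Pro and 8023 in Ent-Pro). No paired analysis was possible because each H3K27ac group has 1 library. Read depth is unknown and limits every statement on absence.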

Other observations

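One-sided peaks were spread over all chromosomes, with 1 exception in level. On chromosome X 203 of 1341 Sec-Pro peaks (15.1% [13.3 to 17.2]) were one-sided, against 18.6% to 23.4% on the autosomes, and 284 of 1290 Ent-Pro peaks (22.0% [19.8 to 24.4]), against 20.6% to 24.8% on the autosomes. Neither H3K27ac list had a peak on chromosome Y, nor did the 4 progenitor H3K4me2 lists, the DHS lists or ATOH1, whereas H3K4me2 had 26 peaks there in GOB, 28 in ENT and 6 in ISC. The labels give no sex for the mice.

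Over all pairs, differences in H3K27ac rank between Sec-Pro and Ent-Pro had little relation to differences in rank of H3K4me2 or DHS. Over pairs that both lists of a comparison marked, the difference of H3K27ac rank had a Spearman correlation of 0.06 with that of H3K4me2 between the 200-bp lists (23591 pairs), -0.02 between the 146-bp lists (27721 pairs) and 0.05 with that of DHS (9900 pairs). With GOB minus ENT H3K4me2 it was -0.10 (24529 pairs). These are descriptions across regions that share the same libraries.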
